A study of Mus musculus with 22 samples.

Results

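The 31 genes described here encode the enzymes of glycolysis, the carriers that bring in glucose and release lactate, regulators that set how much carbon flows through the pathway, and well-known genes of the response to low oxygen. They were taken by symbol from the 53342 genes of both count tables, and all 31 were found. They fell into 3 transporters, 16 glycolytic enzymes, 3 flux regulators and 9 hypoxia response genes. The libraries were whole pancreatic tumors and pancreatic cancer cell lines from K-Ras-driven mouse models of the Bl6 line, none of them treated. The 4 groups were miR-21 knockout (KO) tumors (n = 8), wild-type (WT) tumors (n = 4), KO lines (n = 5) and WT lines (n = 5). The lines were grown out of tumors of symptomatic animals for at least 8 passages, were genotyped for the recombined K-Ras and p53 alleles, and were harvested between passages 10 and 14 in 5% serum. By title, each library of a group came from its own animal, and 5 animals gave both a tumor and a line. The ages of the animals and the promoter that drives the recombinase are not given in the sources used here.

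Glycolysis splits glucose into pyruvate, and tumor cells often run it fast and turn the pyruvate into lactate even when oxygen is present. In low oxygen, the transcription factor subunit HIF-1α escapes degradation and switches on many genes of this pathway by binding a short core motif (ACGTG or GCGTG) in their promoters. Pancreatic ductal tumors are known for poor blood supply, and oncogenic K-Ras is known to raise several glycolytic genes. MicroRNA-21 is a small RNA that is abundant in many tumors and lowers mRNAs that carry a match to its seed, bases 2 to 8.

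The mature miR-21 sequence is shown because its absence defines the KO groups, with the seed in capitals (RefSeq, GRCm38.p6, chromosome 11).
mmu-miR-21a-5p: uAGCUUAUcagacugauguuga

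A match to this seed, ATAAGCT, lay in the longest annotated 3′ UTR of 3 of the 31 genes (9.68%), against 7.52% of 21025 genes with an annotated 3′ UTR of at least 20 bases. Each of the 3 is shown with its match in capitals. They belong to Pfkm, the muscle-type phosphofructokinase on chromosome 15, to Slc16a3, a lactate exporter on chromosome 11, and to P4ha1, a collagen prolyl hydroxylase subunit on chromosome 10. The match starts at base 283 of the 3′ UTR of Pfkm, base 852 of that of Slc16a3 and base 1035 of that of P4ha1.
Pfkm: gttttcctaaaaATAAGCTttatttatttc
Slc16a3: ctgaagtatagcATAAGCTgttcactgtgt
P4ha1: ggctcccttgggATAAGCTtcggggaattt

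Library totals ran from 24547650 to 31118113 counts. CPM are counts scaled to a common library size with TMM factors, and a count of 0 in the smallest library allows up to 0.122 CPM from counting error alone. The gene of miR-21 itself had 0 counts in all 22 libraries, WT included, so it checks no label. Summed epithelial markers were 4413 to 9173 CPM in KO tumors, 7462 to 15339 in WT tumors, 9229 to 12637 in KO lines and 7712 to 15288 in WT lines. Fibroblast markers summed to at least 1952 CPM in every tumor and at most 16 CPM in any line, with Dcn and Lum at 0 in all lines. Of the 8 macrophage markers, Adgre1, Lyz2, C1qa and C1qb were at 0 in all lines. The whole macrophage list still summed to 154 to 290 CPM in lines, against 827 to 3484 CPM in tumors. In whole tumors, fewer cells of a type and less RNA per cell cannot be told apart. Acinar markers, from digestive enzyme genes of normal pancreas, reached 2661 CPM in KO tumor 4 and 1234 CPM in KO tumor 8, and skeletal muscle markers reached 1554 CPM in WT tumor 3, against at most 65.7 CPM in any KO tumor.

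**Figure D1:**
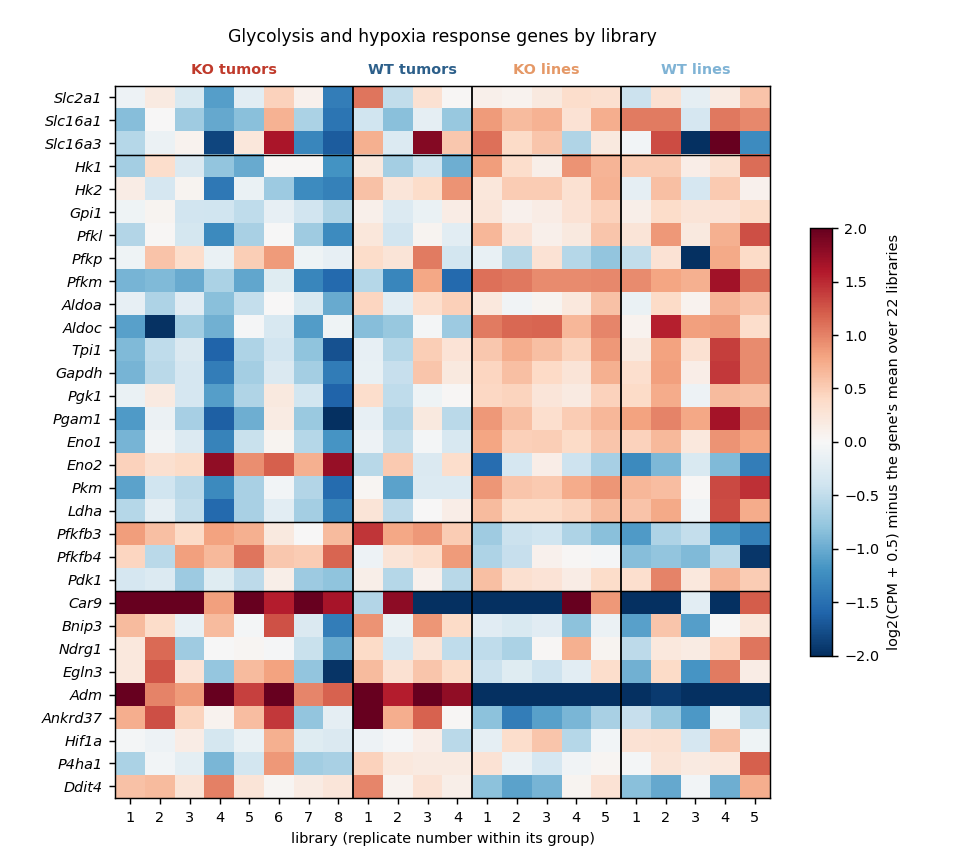
Each of the 31 genes (rows, by role) in each of the 22 libraries (columns, by group), coloured by log2(CPM + 0.5) minus the gene's mean over all libraries, with the scale ending at 2 in either direction. The enzyme rows are mostly blue in the tumors and red in the lines, Pfkfb3 and Adm run the other way, and KO tumors 4 and 8 are the bluest enzyme columns.

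The first comparison asks whether the genes differed between KO and WT tumors. In 24 of the 31 genes (77.4%) the log2 fold change of KO over WT tumors was below 0, with a median of -0.37, against a median of 0.01 and 49% below 0 over all 18125 genes tested. None of the 31 passed at an adjusted p of 0.05 in edgeR's quasi-likelihood test with Benjamini-Hochberg adjustment over all genes, where 0.011% of all genes passed. Before adjustment, 8 had a p under 0.05, of which 2 lay above 0 and 6 below. Over all genes, 16.7% had an unadjusted p under 0.05, 1512 above 0 and 1521 below. DESeq2 put 4 of the 31 past the same threshold, Aldoa (adjusted p = 0.0341), Hk2 (0.0345), Gapdh (0.047) and Car9 (0.0345), and 883 of all genes, while limma-voom put none of the 31 and 4 of all genes past it. The 16 enzymes had a median log2 fold change of -0.44 with 14 of them below 0, the 3 transporters -0.55 with 2 below 0, the 3 flux regulators -0.25 with 2 below 0, and the 9 hypoxia genes -0.25 with 6 below 0.

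Hk2 encodes the inducible hexokinase that traps glucose in the cell by phosphorylation (ENSMUSG00000000628.10, mm10, chromosome 6, 82725025 to 82774454, minus strand). Its lowest, median and highest levels in KO tumors were 60.9, 115 and 182 CPM, and WT tumors had 248, 196, 213 and 308 CPM. It was the only one of the 31 genes whose KO and WT tumors did not overlap, with every KO tumor below every WT tumor, as for 0.789% of all genes in this direction and 1.12% in the other. The log2 fold change was -1.08 (SE 0.31, adjusted p = 0.148 by edgeR).

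Aldoa encodes the main aldolase, which splits fructose bisphosphate (ENSMUSG00000030695.16, chromosome 7, 126795234 to 126800751, minus strand). It reached 425.5, 655 and 864 CPM as the lowest, median and highest of KO tumors, against 1158, 740.1, 1082 and 1195 CPM in WT tumors. Only WT tumor 2 lay within the KO range, and the log2 fold change was -0.73 (SE 0.21, adjusted p = 0.147 by edgeR). Tpi1 encodes triose phosphate isomerase, which interconverts the 2 products of aldolase. Its KO tumors had 159, 328 and 435 CPM as lowest, median and highest, and its WT tumors 476, 359.7, 749.7 and 644 CPM. Again WT tumor 2 alone lay within the KO range (log2 fold change -0.86, SE 0.29, adjusted p = 0.195 by edgeR).

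Gapdh, the dehydrogenase that follows, had 251, 412 and 545 CPM as lowest, median and highest in KO tumors and 599, 484, 979 and 757 CPM in WT tumors, with a log2 fold change of -0.84 (SE 0.25, adjusted p = 0.159 by edgeR). Of its 75-base runs, 22.6% also occur in other annotated genes, mostly processed copies, so its counts are uncertain. Ldha encodes the lactate dehydrogenase subunit that turns pyruvate into lactate (ENSMUSG00000063229.15, chromosome 7, 46841475 to 46855627, plus strand). It had 339, 653 and 876 CPM as lowest, median and highest in KO tumors, and 1187, 691, 999.6 and 1084 CPM in WT tumors. For both genes the 8 KO tumors lay below 3 of the 4 WT tumors and WT tumor 2 lay within their range. The log2 fold change of Ldha was -0.66 (SE 0.26, adjusted p = 0.239 by edgeR).

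Pgk1 encodes phosphoglycerate kinase, the first step that yields ATP (ENSMUSG00000062070.12, chromosome X, 106187100 to 106203699, plus strand). Its KO tumors had 60.4, 144 and 212 CPM as lowest, median and highest, and its WT tumors 237, 129.6, 174 and 188 CPM. The groups overlapped broadly (log2 fold change -0.37, SE 0.31, adjusted p = 0.585 by edgeR), and 52.8% of its 75-base runs are shared with 4 other annotated genes. The remaining enzymes below 0 were the phosphofructokinases Pfkm (-0.59), Pfkl (-0.49) and Pfkp (-0.17), the isomerase Gpi1 (-0.29), Pgam1 (-0.53), Eno1 (-0.31), Pkm (-0.38) and Aldoc (-0.16), each with overlapping groups, and the housekeeping hexokinase Hk1 was at 0.03.

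Car9 and Eno2 lay on the other side of 0. Car9 encodes a membrane carbonic anhydrase that is a classic hypoxia marker (ENSMUSG00000028463.14, chromosome 4, 43506966 to 43513729, plus strand). The lowest, median and highest KO tumors had 46.5, 122 and 238 CPM, and WT tumors had 17.3, 91.9, 5.8 and 5.44 CPM. Every KO tumor lay above 3 of the WT tumors, and WT tumor 2 lay within the KO range. The log2 fold change was 2.05 (SE 0.74, adjusted p = 0.211 by edgeR), and without WT tumor 2 it was 3.65, past the threshold (adjusted p = 0.0435). With the skeletal muscle marker mean as a covariate it was 0.89.

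Eno2, the neuronal enolase, is a minor isoform here: KO tumors had 3.24, 4.78 and 9.69 CPM as lowest, median and highest, and WT tumors 1.54, 3.8, 1.95 and 3.31 CPM. The 2 groups overlapped through WT tumors 2 and 4 (log2 fold change 1.07, SE 0.39, adjusted p = 0.214 by edgeR). Its 2 highest values were those of KO tumors 4 and 8, the acinar-rich tumors.

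**Figure D2:**
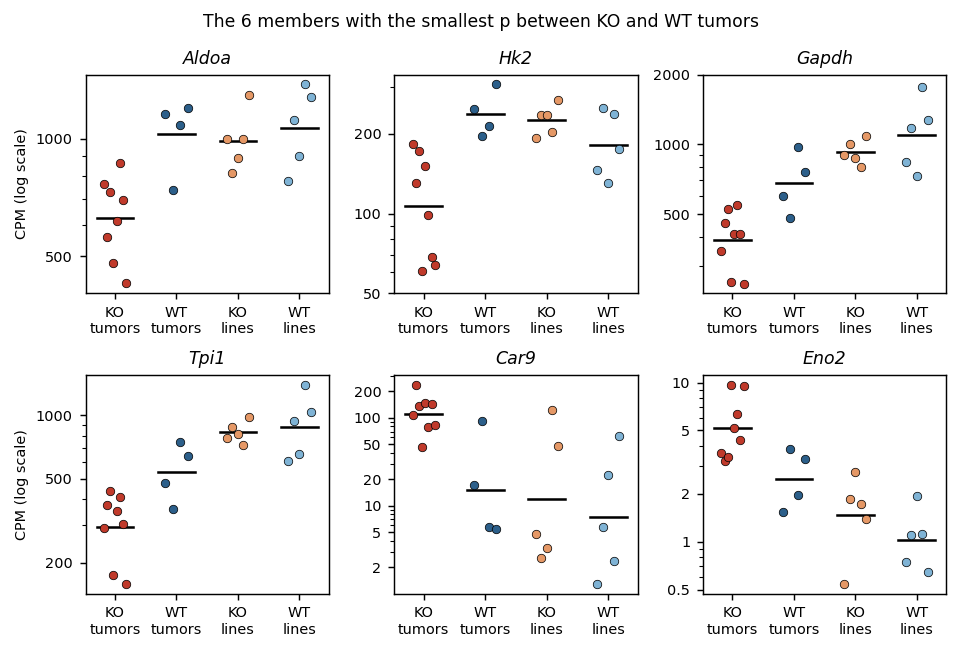
CPM on a log scale of the 6 genes with the smallest p between KO and WT tumors, in all 4 groups, with 1 point per library and a bar at the mean of the log values. KO tumors sit below WT tumors for Aldoa, Hk2, Gapdh and Tpi1 and above most of them for Car9 and Eno2, with overlap in every panel but that of Hk2.

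Slc2a1 encodes GLUT1, the main glucose importer of tumor cells (ENSMUSG00000028645.11, chromosome 4, 119108711 to 119137983, plus strand). KO tumors had 61.7, 146 and 222 CPM as lowest, median and highest, against 340.4, 114, 200.1 and 165 CPM in WT tumors. WT tumor 1 was the highest of all tumors and WT tumor 2 lay below the KO median, and the log2 fold change was -0.55 (SE 0.36, adjusted p = 0.459 by edgeR). The lactate exporter Slc16a3 ranged from 21.18 to 240.0 CPM in KO tumors and had 126, 63.1, 276 and 112 CPM in WT tumors (log2 fold change -0.95, adjusted p = 0.453 by edgeR).

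Hif1a encodes the oxygen-regulated HIF-1α subunit, which is controlled mainly at the level of protein (ENSMUSG00000021109.13, chromosome 12, 73901375 to 73947530, plus strand). Its mRNA had 153, 180.2 and 318 CPM as lowest, median and highest in KO tumors, and 182, 191, 214 and 134 CPM in WT tumors. All WT tumors but WT tumor 4 lay within the KO range, and KO tumor 6 stood apart at the top (log2 fold change 0.09, SE 0.21, adjusted p = 0.871 by edgeR).

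Pfkfb3 encodes an enzyme that makes the phosphofructokinase activator fructose-2,6-bisphosphate (ENSMUSG00000026773.19, chromosome 2, 11471433 to 11554077, minus strand). It had 48.5, 74 and 86 CPM as lowest, median and highest in KO tumors, and 130.4, 82.3, 88.5 and 68.7 CPM in WT tumors (log2 fold change -0.42, SE 0.19, adjusted p = 0.292 by edgeR). P4ha1, which carries one of the seed matches shown above, had 46.2, 62.2 and 160.3 CPM as lowest, median and highest in KO tumors against 122, 101, 99.7 and 99.4 CPM in WT tumors (log2 fold change -0.51, adjusted p = 0.404 by edgeR). The other hypoxia genes and flux regulators had overlapping groups as well. Adm had 5.48, 7.54 and 36.1 CPM as lowest, median and highest in KO tumors, and 50.1, 9.32, 12.8 and 10.8 CPM in WT tumors (-0.67, SE 0.61), and Ankrd37 had 4.57, 12.2 and 22.7 CPM in KO tumors and 43.1, 14, 19.4 and 8.35 CPM in WT tumors (-0.75, SE 0.47), with WT tumor 1 the highest in both. Bnip3 was at -0.29, Egln3 at -0.25, Ddit4 at -0.01, Ndrg1 at 0.01, Pdk1, the kinase that shuts pyruvate out of mitochondrial oxidation, at -0.25, Pfkfb4 at 0.25 and the lactate and pyruvate carrier Slc16a1 at 0.04.

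Leaving out 1 library turned the sign of Adm (0.26 without WT tumor 1), of Pfkm (0.16), Pfkp (0.14) and Aldoc (0.09) without WT tumor 3, and of Hif1a, Hk1, Slc16a1, Ndrg1 and Ddit4, whose values lay near 0.

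Of the 3 genes with a match to the miR-21 seed, Slc16a3 was at -0.95, Pfkm at -0.59 and P4ha1 at -0.51 between KO and WT tumors, and none passed. The value of Pfkm rests on the muscle-rich WT tumor 3 (113 CPM), since it was 0.16 without that tumor and 0.74 with the mean of the skeletal muscle markers as a covariate. With covariates chosen after seeing the data, Pfkm was at 0.03 (acinar markers) and Slc16a3 at 0.11 (proliferation markers). Between KO and WT lines Slc16a3 was at -0.72, Pfkm at -0.09 and P4ha1 at -0.46. Without WT line 4 Slc16a3 was at 0.46 and Pfkm at 0.11, and by limma-voom Slc16a3 was at 0.54.

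The 2 tumors with the lowest mean of these genes were the richest in acinar, fibroblast and macrophage markers. The mean over the 31 genes, as a log2 deviation from the mean of all tumors, was lowest in KO tumor 8 (-0.66) and KO tumor 4 (-0.37), and highest in KO tumor 6 (0.48), WT tumor 1 (0.43) and WT tumor 3 (0.35). KO tumor 8 was the lowest of the 12 tumors for 15 of the 31 genes and KO tumor 4 for 6. The same 2 tumors had the highest acinar sums and the highest fibroblast sums, 12691 CPM in KO tumor 8 and 9391 CPM in KO tumor 4. WT tumor 3, among the highest in these genes, had a fibroblast sum of 7686 CPM. Macrophage sums were also highest in KO tumor 8 (3484 CPM) and KO tumor 4 (3180 CPM). KO tumor 7, the next lowest in these genes (-0.29), had 143 CPM of acinar and 5567 CPM of fibroblast markers. Proliferation markers summed to 260 to 705 CPM in KO tumors and 488 to 888 CPM in WT tumors, and all 10 had a log2 fold change below 0 (median -0.65, none past the threshold).

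Epithelial markers had 11 of 12 log2 fold changes below 0 (median -0.51, 4 of them at an unadjusted p under 0.05 and none past the threshold). With the epithelial marker mean as a covariate the median over the 31 genes was -0.47 and the log2 fold change of Hk2 was -0.70. With the skeletal muscle marker mean they were -0.21 and -1.21. In that fit Pfkm (0.74), Pfkp (0.42), Aldoc (0.29), Ddit4 (0.13), Pdk1 (0.07) and Bnip3 (0.01) turned to above 0. All 8 muscle markers tested had a log2 fold change below 0 (median -5.41, 7 at an unadjusted p under 0.05, none past the threshold). Their median sum was 29.6 CPM for the KO group, against 63.7 CPM for the WT group. This covariate thus differed with genotype, and the fit cannot fully separate the 2. None of the 31 passed in either fit, and the part of these cells in the values was not tested further.

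The other fits and subsets were chosen after seeing the data. With the acinar marker mean as a covariate the median over the 31 genes was -0.12 and the log2 fold change of Hk2 was -1.04, and with the proliferation marker mean they were -0.09 and -0.73. Without KO tumors 4 and 8 the median was -0.22, and without WT tumor 3 as well it was -0.10. In all of these Hk2, Aldoa, Gapdh and Tpi1 stayed below 0, with Gapdh at -0.34 and Tpi1 at -0.31 under the proliferation covariate, and none of the 31 passed.

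**Figure D3:**
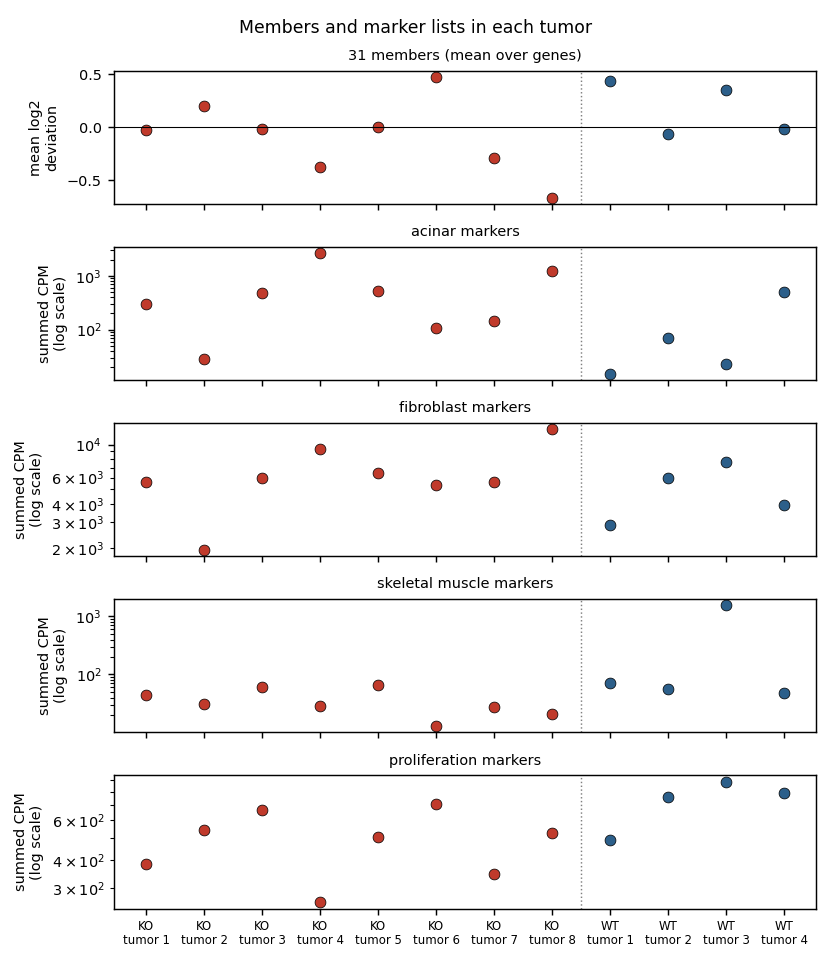
From top to bottom, the mean log2 deviation of the 31 genes and the summed CPM (log scale) of acinar, fibroblast, skeletal muscle and proliferation markers in each of the 8 KO and 4 WT tumors. KO tumors 4 and 8 have the lowest mean of the KO group and the highest acinar and fibroblast sums, and WT tumor 3 has the highest muscle sum.

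The second comparison asks the same of cultured cancer cells. Here 22 of the 30 genes tested (73.3%) had a log2 fold change of KO over WT lines below 0, with a median of -0.14, against -0.03 and 53.7% over all 14020 genes. Adm was too low in the lines to be tested. None of the 30 passed by edgeR, where 0.0143% of all genes did, and none passed by DESeq2 or limma-voom. Before adjustment, 1 gene above 0 and 1 below had a p under 0.05, as had 6.99% of all genes, 476 above 0 and 504 below. No gene had groups that did not overlap, against 0.742% of all genes in the higher and 0.521% in the lower direction. Proliferation markers summed to 1619 to 2370 CPM in KO lines and 1808 to 3337 CPM in WT lines, and with their mean as a covariate, a fit chosen after seeing the data, the median over the 30 genes was 0.04.

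The gene that was lower at the unadjusted threshold was Pgam1, a phosphoglycerate mutase, with 117, 97.4, 80.9, 91.1 and 101 CPM in KO lines and 112, 127, 109, 203 and 132 CPM in WT lines. KO line 1 alone lay within the WT range (log2 fold change -0.49, SE 0.18, adjusted p = 0.713 by edgeR), and 34.9% of its 75-base runs are shared with processed copies. The higher one was Pfkfb4, which like Pfkfb3 sets fructose-2,6-bisphosphate, with 6.28, 7.11, 10.6, 10.1 and 9.79 CPM in KO lines and 5.3, 5.56, 5.15, 6.67 and 2.2 CPM in WT lines. Here 4 of 5 KO lines lay above all WT lines (log2 fold change 0.82, SE 0.31, adjusted p = 0.713 by edgeR).

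Pfkfb3 had 29.2, 35.6, 36.5, 31.3 and 26.9 CPM in KO lines and 21.58, 31.4, 34.5, 21.20 and 18.5 CPM in WT lines (log2 fold change 0.33, adjusted p = 0.725 by edgeR). P4ha1 had 107, 81.2, 69.2, 83.5 and 89.9 CPM in KO lines and 85.5, 105, 99.2, 102 and 202 CPM in WT lines (-0.46, adjusted p = 0.715). Pfkl, the liver-type phosphofructokinase, had 338, 259, 229, 244 and 312 CPM in KO lines and 255, 391, 244, 349 and 521 CPM in WT lines (-0.34, adjusted p = 0.729). Ankrd37, a small ankyrin repeat gene induced by HIF-1, had 4.47, 2.87, 3.6, 4.14 and 5.07 CPM in KO lines and 5.86, 4.68, 3.46, 7.78 and 5.53 CPM in WT lines (-0.44, adjusted p = 0.738 by edgeR). In each of these genes the KO and WT lines overlapped.

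The glucose importer, lactate dehydrogenase, phosphoglycerate kinase and HIF-1α genes had log2 fold changes between -0.22 and 0.09 in the lines. Slc2a1 had 173, 169, 186, 206 and 202 CPM in KO lines and 120.4, 199, 143, 180.4 and 239.9 CPM in WT lines (log2 fold change 0.09, SE 0.17, adjusted p = 0.916 by edgeR). Ldha had 1549, 1298, 1298, 1351 and 1539.5 CPM in KO lines and 1483, 1672, 942, 2463 and 1654 CPM in WT lines (-0.22, SE 0.21, adjusted p = 0.808). Pgk1 had 245, 251, 219, 211 and 255 CPM in KO lines and 241, 309, 172, 288 and 281 CPM in WT lines (-0.13, SE 0.15, adjusted p = 0.856). The KO lines lay inside the range of the WT lines for all 3 of these genes. Hif1a had 172, 248, 287, 131 and 188 CPM in KO lines and 239.6, 240.4, 154, 292 and 183 CPM in WT lines (-0.11, SE 0.23, adjusted p = 0.921 by edgeR).

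The KO lines lay closer together than the WT lines for many of these genes, which is a description without a test. The coefficient of variation was 9.02% in KO lines and 33.2% in WT lines for Ldha, 12.2% and 35.4% for Gapdh, and 4.92% and 29.7% for Pfkm. WT line 4 was the highest of the 10 lines for 13 genes and WT line 3 the lowest for 12, with mean log2 deviations over 30 genes of 0.34 and -0.43. The widest spread was that of Slc16a3, with 165, 100.5, 113, 50.6 and 88.4 CPM in KO lines and 73.9, 189.9, 5.35, 551 and 31.8 CPM in WT lines, a 103-fold range among WT lines. Car9 was uneven in both, with 4.79, 2.52, 3.34, 123 and 48.2 CPM in KO lines and 1.3, 5.73, 22.6, 2.35 and 61.5 CPM in WT lines.

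Whether the KO effect differed between tumors and lines was tested as an interaction over all 22 libraries. None of the 31 genes passed by edgeR, DESeq2 or limma-voom, and 0% of all genes passed by edgeR, against 67 genes by DESeq2 and none by limma-voom. Before adjustment, 3 of the 31 had a p under 0.05, each with a lower effect in tumors, as had 981 of all genes with a higher and 559 with a lower effect in edgeR. The smallest p was that of Hk2 (-1.33, SE 0.39, adjusted p = 0.434), whose log2 fold change was -1.08 in KO tumors and 0.28 in KO lines, where KO lines had 193, 236, 235, 203 and 267 CPM and WT lines 146, 250.2, 131, 236 and 175 CPM. Pfkfb3 (-0.72, SE 0.27, adjusted p = 0.491) and Aldoa (-0.58, SE 0.27, adjusted p = 0.598) came next, the last with 995, 818, 894, 996 and 1292 CPM in KO lines and 778, 1113, 900.1, 1376 and 1279 CPM in WT lines.

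**Figure D4:**
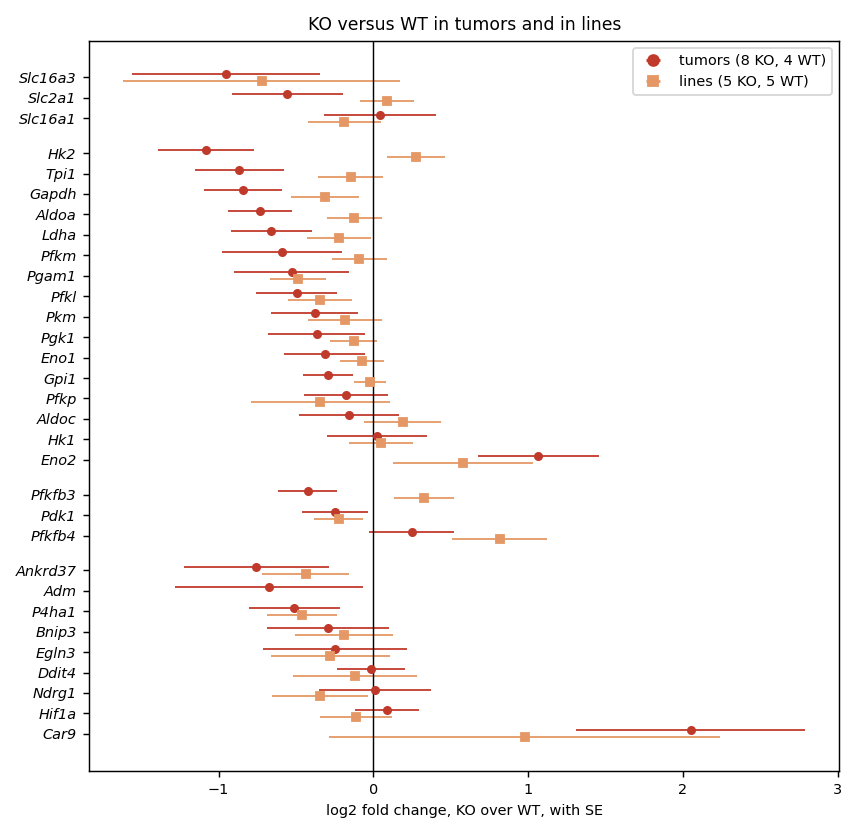
Log2 fold change of KO over WT with its standard error for each of the 31 genes, grouped by role, in tumors (circles) and in lines (squares, 30 genes). Most points lie left of 0, the tumor points of most enzymes lie further left than the line points, and Hk2 and Pfkfb3 have opposite signs in tumors and lines.

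The comparison of whole tumors with cultured lines held nearly all the differences that passed. Of the 31 genes, 22 (71%) passed by edgeR, 7 higher and 15 lower in tumors, against 65.5% of all 18662 genes, 38.5% higher and 27% lower. Of the 16 glycolytic enzymes, 13 were lower in tumors and 1, Eno2, was higher, with a median log2 fold change of -0.95, while all genes had a median of 0.15. Of the 9 hypoxia genes 4 were higher, a share near that of all genes, and none was lower, and 1 of the 4 is Adm. Of the 3 flux regulators, Pfkfb3 and Pfkfb4 rose and Pdk1 fell. Groups did not overlap for 2 genes that were higher (Adm and Pfkfb3) and 4 that were lower (Aldoc, Eno1, Pgam1 and Pdk1), against 12.2% and 5.58% of all genes.

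Among the enzymes, Pfkm changed most. It had 22.3, 33.6 and 113 CPM as lowest, median and highest in the 12 tumors, and 109, 129 and 213 CPM in the 10 lines. Only WT tumor 3, the tumor with the high muscle sum, reached the range of the lines (log2 fold change -1.69, SE 0.24, adjusted p = 3.65e-06 by edgeR). Aldoc, the brain-type aldolase, had 6.3, 15.4 and 25.8 CPM in tumors and 27.5, 49.9 and 78 CPM in lines (-1.55, SE 0.22, adjusted p = 5.52e-06). Pgam1 had 14.9, 41.3 and 73.5 CPM in tumors and 80.9, 111 and 203 CPM in lines (-1.35, SE 0.22, adjusted p = 2.61e-05 by edgeR). In Aldoc and Pgam1 every tumor lay below every line.

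Pkm, the pyruvate kinase of muscle and tumor cells and among the most abundant of these mRNAs per length, had 514, 1011 and 1534 CPM as lowest, median and highest in tumors and 1519.6, 2444 and 4133 CPM in lines (log2 fold change -1.34, SE 0.19, adjusted p = 5.66e-06 by edgeR). Eno1, the main enolase, had 173, 333 and 453 CPM in tumors and 504, 625 and 809 CPM in lines (-0.96, SE 0.15, adjusted p = 1.81e-05). Ldha had 339, 700.1 and 1187 CPM in tumors and 942, 1511 and 2463 CPM in lines (-0.93, SE 0.17, adjusted p = 8.32e-05 by edgeR). Tumors and lines touched only at their ends in Pkm, overlapped at WT tumors for Ldha and stood apart in Eno1. Pgk1 fell less (-0.61, SE 0.18, adjusted p = 0.00588), with 60.4, 158 and 237 CPM in tumors and 172, 248 and 309 CPM in lines, and did not pass between WT tumors and WT lines alone (-0.50, adjusted p = 0.145 by edgeR). Eno1, Pgam1, Pkm and Pgk1 share 17.8% to 52.8% of their 75-base runs with other annotated genes.

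The other enzymes and carriers that fell were Tpi1 (log2 fold change -1.08), Gapdh (-0.97), Hk1 (-0.96), Pfkl (-0.84), Gpi1 (-0.43) and Aldoa (-0.35), with Slc16a1 (-1.23) and the kinase Pdk1 (-0.77). Hk1 had 103, 164 and 300.4 CPM as lowest, median and highest in tumors and 255, 336 and 511 CPM in lines. Pdk1 had 63.3, 82.1 and 120.4 CPM in tumors and 123, 141 and 221 CPM in lines. Pfkp was the 1 enzyme besides Eno2 above 0 and did not pass (0.48, adjusted p = 0.118 by edgeR). It passed in 1 of 31 alternatives, limma-voom with the animal as a block (0.59, adjusted p = 0.0436).

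Of the genes that rose in tumors, Adm encodes the vasodilator peptide adrenomedullin (ENSMUSG00000030790.15, chromosome 7, 110627661 to 110629820, plus strand). It had 5.48, 10.1 and 50.1 CPM as lowest, median and highest in tumors and 0, 0.181 and 0.379 CPM in lines. The lines had at most 9 counts each, so the log2 fold change of 6.70 (SE 0.60, adjusted p = 1.06e-08 by edgeR) depends on the prior count. Adm passed the filter on low counts only through the tumors; of the other 30 genes, 6 rose and 15 fell.

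Pfkfb3 had 48.5, 76.9 and 130.4 CPM as lowest, median and highest in tumors and 18.5, 30.3 and 36.5 CPM in lines, with every tumor above every line (log2 fold change 1.50, SE 0.14, adjusted p = 2.02e-08 by edgeR). Pfkfb4 had 6.68, 14.5 and 23 CPM in tumors and 2.2, 6.47 and 10.6 CPM in lines (1.13, SE 0.21, adjusted p = 1.03e-04 by edgeR). Ankrd37 had 4.57, 13.4 and 43.1 CPM in tumors and 2.87, 4.57 and 7.78 CPM in lines (1.81, SE 0.30, adjusted p = 2.2e-05 by edgeR). Its counts are uncertain, because a gene on the other strand overlaps it and the strand setting of the counting is not given. Bnip3 had 15.7, 54.1 and 101 CPM in tumors and 19.2, 35.6 and 61.3 CPM in lines, so the groups overlapped. Eno2 rose by 1.52, Ddit4, a stress-induced inhibitor of mTORC1, by 0.75 and Bnip3, a mitochondrial protein of mitophagy, by 0.67.

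**Figure D5:**
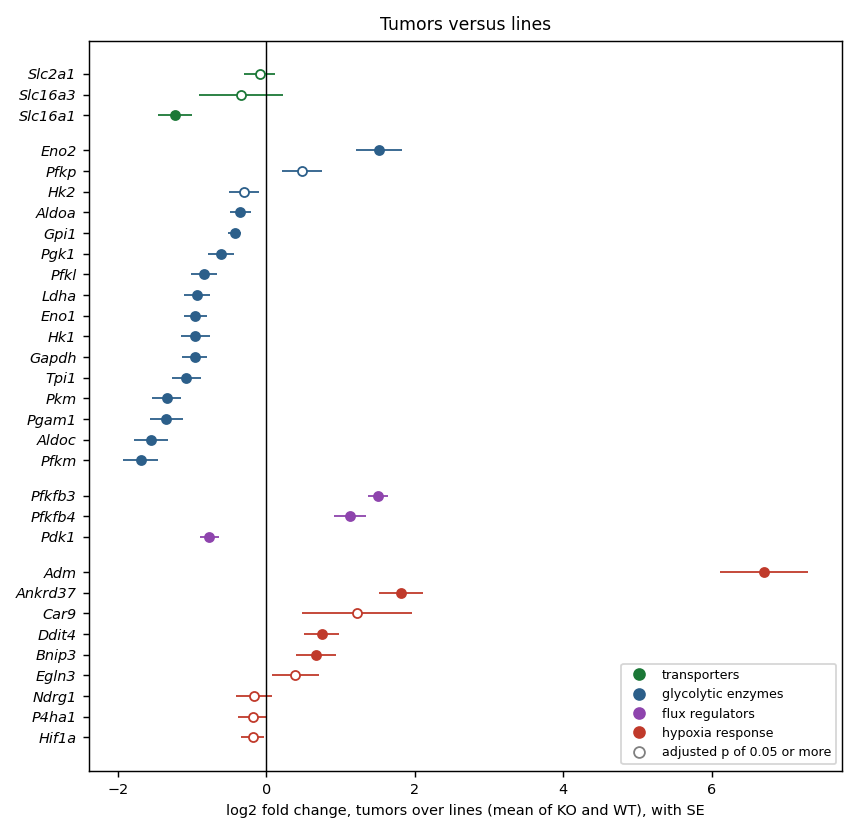
Log2 fold change of tumors over lines, averaged over KO and WT, with its standard error for each of the 31 genes by role, filled where the adjusted p was under 0.05. The enzymes lie left of 0 except Eno2 and Pfkp, and the hypoxia genes lie right of 0 or near it, with Adm at 6.70.

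The glucose importer and the regulator did not pass. Slc2a1 had 61.7, 158 and 340.4 CPM as lowest, median and highest in tumors and 120.4, 183 and 239.9 CPM in lines (log2 fold change -0.09, SE 0.21, adjusted p = 0.719 by edgeR). Hif1a had 134, 182 and 318 CPM in tumors and 131, 214 and 292 CPM in lines (-0.19, SE 0.16, adjusted p = 0.303). For Slc2a1 the lines lay within the range of the tumors, and for Hif1a the ranges of tumors and lines were nearly the same. Car9 had 5.44, 87.7 and 238 CPM in tumors and 1.3, 5.26 and 123 CPM in lines and did not pass (1.22, SE 0.74, adjusted p = 0.151 by edgeR). It passed by limma-voom with the animal as a block (2.41, adjusted p = 0.00359) and without the block (2.17, adjusted p = 0.0128). By edgeR it passed without KO line 4 (adjusted p = 0.0304) or without WT line 5 (0.0352). Egln3 (0.39), P4ha1 (-0.18), Ndrg1 (-0.17) and Slc16a3 (-0.34) did not pass either. Hk2 did not pass over both genotypes (-0.30), and passed between KO tumors and KO lines alone (-0.97, adjusted p = 0.00286) but not between WT tumors and WT lines (0.36, adjusted p = 0.332 by edgeR). The test of that difference is the interaction given above, which Hk2 did not pass.

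All 10 proliferation markers were lower in tumors than in lines, with a median log2 fold change of -1.91 and sums of 260 to 888 CPM in tumors and 1619 to 3337 CPM in lines; their part in the result was not tested. Of the 22 calls, that of Aldoa (-0.35, adjusted p = 0.0313) was lost with RLE factors (adjusted p = 0.106), upper quartile factors (0.159), a minimum mean CPM of 1, DESeq2, in WT alone (-0.06, adjusted p = 0.833) and without KO line 5, WT line 4, WT line 5 or WT tumor 2 (0.0583 to 0.0829 in these 4). That of Bnip3 (adjusted p = 0.0337) was lost with no filter on low counts, within either genotype, and without KO tumors 4 or 6, WT tumors 1 or 3, KO line 4 or WT lines 1 or 3 (0.0518 to 0.0703 in these 7). In WT alone those of Ddit4 (0.67, adjusted p = 0.119) and Gpi1 (-0.31, adjusted p = 0.0638) were lost too.

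The promoters of the 4 genes with the smallest p between tumors and lines are shown with the HIF core motif in capitals (ACGTG or GCGTG, on either strand). Where a core on one strand overlaps a core on the other, both are in capitals. Each window runs from 250 bases before to 50 after an annotated start (RefSeq, GRCm38.p6), and for a gene with several starts the window with the most cores is shown.
Adm, chr7:110627407-110627706, plus strand: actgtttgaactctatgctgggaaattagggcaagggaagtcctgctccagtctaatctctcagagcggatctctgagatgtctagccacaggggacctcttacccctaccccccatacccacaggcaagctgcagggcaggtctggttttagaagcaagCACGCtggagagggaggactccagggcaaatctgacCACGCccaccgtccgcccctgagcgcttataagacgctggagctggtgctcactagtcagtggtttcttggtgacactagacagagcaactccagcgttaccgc
Pfkfb3, chr2:11502041-11502340, minus strand: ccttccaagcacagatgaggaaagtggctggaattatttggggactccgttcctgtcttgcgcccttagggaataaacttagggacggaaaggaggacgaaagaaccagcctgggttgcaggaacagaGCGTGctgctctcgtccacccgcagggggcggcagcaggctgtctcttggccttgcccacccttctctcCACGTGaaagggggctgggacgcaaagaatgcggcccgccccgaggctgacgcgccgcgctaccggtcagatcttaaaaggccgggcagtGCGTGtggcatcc
Pfkm, chr15:98092339-98092638, plus strand: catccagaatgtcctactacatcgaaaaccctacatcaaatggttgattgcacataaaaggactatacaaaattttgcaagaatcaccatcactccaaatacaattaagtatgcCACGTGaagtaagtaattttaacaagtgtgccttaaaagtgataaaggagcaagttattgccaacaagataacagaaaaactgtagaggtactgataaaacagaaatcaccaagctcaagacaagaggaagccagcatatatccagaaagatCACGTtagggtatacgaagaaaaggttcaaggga
Aldoc, chr11:78322823-78323122, plus strand: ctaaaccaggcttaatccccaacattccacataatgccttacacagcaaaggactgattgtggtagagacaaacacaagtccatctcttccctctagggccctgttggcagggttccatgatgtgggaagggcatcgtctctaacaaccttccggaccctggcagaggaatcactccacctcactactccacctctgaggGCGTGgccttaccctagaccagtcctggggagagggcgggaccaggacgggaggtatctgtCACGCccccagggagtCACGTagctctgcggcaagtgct

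These windows hold 2 cores in Adm, 4 in Pfkfb3, 3 in Pfkm and 3 in Aldoc. The stretch CACGTG in Pfkfb3 and in Pfkm reads as a core on each strand and counts as 2. A gene had to hold a core to be shown, so the motif in all 4 was set in advance. The other windows of these genes hold 1 core in Pfkfb3, 2, 1 and 0 in Pfkm and 1 in Aldoc. Of the 30 genes with a promoter window, 27 (90%) had a core in at least 1 of their windows, against 46.7% of 27025 genes, and 24 (80%) had one in their first window, against 43.8%. The first windows also held more G and C, with a median of 64.8% against 52.7%, and the core contains both bases. A match says only that these letters are there.

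The isozymes can be compared with each other per length of their annotated exons, as shares of the family's summed RPKM. Hk2 made up 46.9 ± 13.4% of the hexokinase pair Hk1 and Hk2 in KO tumors (SD, n = 8), 66.0 ± 9.21% in WT tumors (n = 4), 47.9 ± 7.8% in KO lines and 43.6 ± 8.73% in WT lines (n = 5 each). Among the phosphofructokinases, Pfkm held 27.0 ± 7.9% in tumors (n = 12) and 44.8 ± 6.06% in lines (n = 10), Pfkl 57.5 ± 8.6% and 50.2 ± 6.26%, and Pfkp, the platelet type, 15.5 ± 2.68% and 5.08 ± 1.91%. From counts without length, Pfkm held 13.4% in tumors and 27.2% in lines, Pfkl 56.2% and 60.5%, the other direction, and Pfkp 30.4% and 12.2%. On both scales the share of the muscle type was lower and that of the platelet type higher in tumors, without a test, and both genes overlap a gene on the other strand. Aldoa supplied 97.9% of the aldolase pair in tumors and 95.8% in lines, and Eno1 98.0% and 99.7% of the enolase pair. Pfkfb3 held 76.3 ± 7.79% of the Pfkfb3 and Pfkfb4 pair in tumors and 73.5 ± 6.78% in lines.

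How closely these mRNAs followed each other across libraries was measured for Pgk1, which was set against Ldha, Slc2a1, Bnip3 and Hif1a on log2 CPM, in tumors and lines apart, which makes 8 relations, with two-sided permutation tests and Benjamini-Hochberg adjustment. Over the 12 tumors, Pearson's r with Ldha was 0.905 (Spearman's rho 0.881, adjusted permutation p = 0.00072 for r and 0.00164 for rho), and 0.812 without KO tumors 4 and 8. With Slc2a1 it was 0.937 (rho 0.902, adjusted permutation p = 0.00024 and 0.00164), and 0.831 without those 2 tumors. With Bnip3 it was 0.742 (rho 0.657, adjusted permutation p = 0.0109 and 0.0382), and 0.799 without them. Tumors high in Pgk1 were thus high in each of these mRNAs. Among the 8 KO tumors alone r was 0.923 with Ldha, 0.956 with Slc2a1 and 0.704 with Bnip3 (permutation p = 0.00231, 0.0008 and 0.0518). With Hif1a r was 0.397 (rho 0.406, adjusted permutation p = 0.21 and 0.222).

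Over the 10 lines, Pgk1 followed Ldha (r = 0.833, rho 0.83, adjusted permutation p = 0.00876 and 0.0103) and Bnip3 (r = 0.828, rho 0.879, adjusted permutation p = 0.00835 and 0.00416), with r at 0.767 and 0.65 without WT lines 2 and 3. With Slc2a1 r was 0.432 (rho 0.345, adjusted permutation p = 0.21 and 0.329), and with Hif1a it was 0.501 (rho 0.515, adjusted permutation p = 0.188 and 0.179). The mRNAs of a library share its depth and cell content, and a relation between 2 of them shows no control of one by the other. The 5 animals with both a tumor and a line gave no common order: KPC232 had the highest mean among lines (over 30 genes, without Adm) and the third highest among tumors (over 31), while KPC190 was 2 of 12 among tumors and 9 of 10 among lines.

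The rest of the pathway, from lists of other genes, can be set beside the 31. Of the 85 genes tested from 5 such lists, none passed between KO and WT tumors by edgeR or limma-voom. In edgeR 5 were higher and 6 lower at an unadjusted p under 0.05, which 16.7% of all genes reached. DESeq2 put Rora, Gpt2, Mpc1 and Cited2 past the threshold, as it did 883 of all 18125 genes. Of the 78 tested between KO and WT lines, none passed by any of the 3 tools. In edgeR 4 were higher and 2 lower at an unadjusted p under 0.05, against 6.99% of all genes. Between tumors and lines, where 38.5% of all genes were higher and 27% lower, the pentose phosphate pathway, which branches off to make NADPH and ribose, had 4 of 8 genes lower and none higher, among them transketolase Tkt (log2 fold change -1.07) and the entry enzyme G6pdx (-0.79). Pyruvate entry to mitochondria had 2 of 14 higher and 7 lower, among them the phosphatase subunit Pdp2 (-1.49) and Dlat (-0.78), a core subunit of pyruvate dehydrogenase. Other glycolytic and gluconeogenic genes had 5 of 19 higher and 6 lower, with Pck2 at -1.75 and Ldhb, the heart-type lactate dehydrogenase subunit, at 4.88. Hk3, a hexokinase known from blood cells, averaged 5.37 CPM in tumors and 0.00767 CPM in lines.

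Other HIF targets had 12 of 33 higher and 7 lower in tumors, no larger shares than those of all genes. They included Lox, a collagen cross-linking enzyme, which averaged 216 CPM in tumors and 0.0789 CPM in lines, and the collagen hydroxylase Plod1 (log2 fold change 1.45). Fibroblast markers were higher in every tumor than in any line, and their part in these values was not tested. HIF subunits and regulators had 2 of 15 higher and 5 lower, with the HIF-3α gene Hif3a at a mean of 27.2 CPM in tumors and 0.179 CPM in lines and the coactivator Ep300 at -0.65. Between KO and WT tumors the smallest p values of these lists were those of Rora (1.15, adjusted p = 0.135), a nuclear receptor, and Cited2 (-1.47, adjusted p = 0.139), a negative regulator of HIF-1, which averaged 33.2 ± 6.5 CPM in KO tumors (SD, n = 8) and 90 ± 61 CPM in WT tumors (n = 4). In lines the glucose transporter gene Slc2a3 averaged 0.478 ± 0.658 CPM in KO lines and 23.9 ± 50.1 CPM in WT lines (n = 5 for each of these means ± SD, adjusted p = 0.713 by edgeR).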

How the data were processed

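Tumors were snap-frozen, TRIzol was used for RNA, and a KAPA stranded kit made mRNA libraries that were read from a single end over 75 bases, per the labels. Per the submitters' processing notes, bcl2fastq 1.9.0, Trim Galore and STAR were used with build mm10. The deposited values are raw gene-level read counts that the authors made, for 53342 genes of which 53237 have a symbol. The strand setting and annotation of the counting are not given in the sources used here.

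Counts were tested with edgeR 4.0.16 in R 4.3.3 (default filter on low counts by group, TMM factors, robust quasi-likelihood test, Benjamini-Hochberg adjustment over all genes tested, threshold 0.05). Tumors and lines were fitted apart for KO against WT, and together for the interaction and for tumors against lines, in which animals that gave both a tumor and a line were treated as independent. Between libraries, the common biological coefficient of variation reached 0.501 (tumors) and 0.422 (lines). No 2 libraries of a group agreed within counting noise (smallest chi-square per degree of freedom 45.5). Alternatives were other factors, filters and tools (DESeq2 1.42.0, limma 3.58.1), marker covariates, an animal block in limma-voom (consensus correlation 0.287) and leaving out libraries. The fits were also run on simulated counts with known changes, and the outcome is not given here. Correlations used log2 CPM with a prior count of 0.5 and 100000 permutations. GENCODE vM21 (mm10) gave gene positions, exon lengths and 3′ UTRs, and RefSeq the promoter and miRNA sequences. Windows were searched for ACGTG and for GCGTG on both strands.

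The 31 genes and the lists were chosen with earlier results of these data known. Genes given in full are those past the threshold (up to 8 per comparison by smallest p), or the 6 with the smallest p where fewer than 5 passed, with Hif1a, Slc2a1, Ldha and Pgk1 always. From other lists up to 3 per comparison were eligible. The promoters shown are those of the 4 genes with the smallest p between tumors and lines among genes with a core in a window.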

Additional observations from a re-analysis of the deposited data

Results flagged for a closer look

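In 12 places 1 library stood apart from the rest of its group by a gap that is large against the group's range (Dixon's test at the 95% level), out of 124 gene and group combinations checked. Chance gives about 1 in 20 for independent values that follow a normal distribution. The genes here share their libraries, so the count cannot be judged against that rate.

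The KO tumor 6 library stood apart in 3 genes, with Slc16a3 at 240.0 CPM (next 90.2), Hif1a at 318 CPM (next 215.7) and P4ha1 at 160.3 CPM (next 84.2). It also had the highest mean over the 31 genes of all tumors. KO tumor 2 had Ndrg1, a hypoxia-induced differentiation gene, at 450.6 CPM (next 239.7). Among WT tumors, WT tumor 1 had Adm at 50.1 CPM (next 12.8) and P4ha1 at 121.6 CPM (next 101.4), WT tumor 2 had Car9 at 91.9 CPM (next 17.3), and WT tumor 3, the one with high muscle markers, had Aldoc at 25.4 CPM (next 15.6).

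In lines, Egln3, an oxygen-sensing prolyl hydroxylase gene, was at 104.1 CPM in KO line 5 (next 70.0). WT line 4 had Pgam1 at 203.2 CPM (next 132.2), WT line 5 had P4ha1 at 202.2 CPM (next 105.2), and WT line 3 had the lactate and pyruvate carrier gene Slc16a1 at 149.8 CPM, below the next value of 368.8 CPM.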

How the results depend on the processing

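The number of the 31 genes that passed between KO and WT tumors was 0, was 4 with DESeq2, and ran from 0 to 1 when 1 library was left out (1 without WT tumor 2). Sign changes were seen in genes that did not pass. Hif1a between KO and WT tumors was -0.10 with the epithelial covariate and ran from -0.057 to 0.20 with 1 library left out. Hif1a between KO and WT lines was 0.10 with the proliferation covariate and ran from -0.25 to 0.012 with 1 library left out. Ldha between KO and WT lines was 0.084 with the proliferation covariate, and Slc2a1 there ran from -0.017 to 0.22 with 1 library left out. Slc2a1 between tumors and lines was 0.029 with upper quartile factors and 0.21 in WT alone, and ran from -0.27 to 0.010 with 1 library left out. The causes were not tested. The shift of all genes between tumors and lines was 0.15 (log2), and 0.24 with RLE factors, 0.27 with upper quartile factors and 0.47 with no filter.

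Replicate numbers are not shared between KO and WT in the labels. No paired analysis of KO against WT was possible because no animal gave both a KO and a WT library. With the animal as a replicate block in limma-voom, 24 of the 31 genes passed between tumors and lines (Car9 and Pfkp besides the 22). In that fit 12970 of all 18662 genes passed, against 12227 in the main fit. None of the 31 passed in the interaction with this block. All marker covariates other than the epithelial and muscle ones, and both subsets of tumors, were chosen after seeing the data. Depth limits Adm in lines, with at most 9 counts per library.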
